A study of Mus musculus with 8 samples.

Results

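The 10 genes described here mark the endothelium, the cell layer that lines blood vessels. They comprise 4 genes for transcription factors (*Erg*, *Sox7*, *Sox17* and *Sox18*) and 6 genes for proteins that are exposed on, or released from, endothelial cells (*Pecam1*, *Emcn*, *Plvap*, *Egfl7*, *Eng* and *Esam*). They were taken by gene symbol from a table of 30890 genes, where each symbol had 1 row. Kidneys of C57BL/6 mouse embryos at E12.5 were kept in organ culture for 72 h with 5 µM CHIR99021 (4 samples) or with 0.1% DMSO, its solvent (4 samples). CHIR99021 blocks the kinase GSK-3, which otherwise sends β-catenin to degradation, so the compound switches on Wnt/β-catenin signaling without a Wnt ligand. DMSO went to the left kidney and CHIR99021 to the right kidney of an embryo, so the compound and the side of the kidney cannot be told apart. Both groups are unmodified whole explants, and how many kidneys made up a sample was not stated. Explants that lacked the usual response of Wnt/β-catenin target genes had been discarded by the study, and a rise of those targets here is therefore not independent evidence that the pathway was active.

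The kidney vasculature at this stage is a plexus that grows among the ureteric bud branches and the mesenchyme, and in an explant it is cut off from blood flow. ERG belongs to the ETS family of transcription factors, and SOX7, SOX17 and SOX18 form the SoxF group. Both families bind regulatory DNA of endothelial genes and are needed for vessels to form and to keep their identity. PECAM1, endomucin, PLVAP, endoglin and ESAM are membrane proteins of endothelial cells, and EGFL7 is secreted by them into the surrounding matrix.

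Since ETS factors such as ERG bind DNA with a GGAA core, promoter sequence is shown for the members that have an entry in the RefSeq promoter table, which are *Egfl7*, *Eng*, *Emcn* and *Erg*. They have 8 windows between them, each taken here from 250 to 21 bases before an annotated start site (230 bases, build GRCm38.p6). *Egfl7* and *Erg* have several windows each, so the windows do not stand for separate genes, and enrichment was not tested. A 6-base ETS core (AGGAAG, or CTTCCT on the other strand) was found in 5 of these 8 windows, and in 27.2% of 32851 windows of the same length over all genes. A TCF/LEF core (CTTTGA or TCAAAG), the letters bound by the partners of β-catenin, was found in 1 member window and in 13.0% of all windows. That member window belongs to *Egfl7*, lies at chr2:26580833-26581062, also holds ETS cores and is not printed below. A SOX core (ACAATG or CATTGT) was found in 1 member window and in 10.1% of all windows. No matches to different motifs overlapped in the member windows. For each of the 4 genes 1 window that holds the ETS core is printed below, with the core in capitals. The *Erg* window, which also holds the SOX core in small letters, lies on the minus strand at chr16:95459369-95459598. The others lie on the plus strand, with *Eng* at chr2:32646345-32646574, *Emcn* at chr3:137340828-137341057 and *Egfl7* at chr2:26583615-26583844. A match describes the letters only and is not a measured binding site.
Eng: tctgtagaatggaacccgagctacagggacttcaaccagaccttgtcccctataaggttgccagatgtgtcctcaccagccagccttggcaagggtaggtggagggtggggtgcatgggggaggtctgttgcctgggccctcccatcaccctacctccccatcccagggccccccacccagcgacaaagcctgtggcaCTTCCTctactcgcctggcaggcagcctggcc
Emcn: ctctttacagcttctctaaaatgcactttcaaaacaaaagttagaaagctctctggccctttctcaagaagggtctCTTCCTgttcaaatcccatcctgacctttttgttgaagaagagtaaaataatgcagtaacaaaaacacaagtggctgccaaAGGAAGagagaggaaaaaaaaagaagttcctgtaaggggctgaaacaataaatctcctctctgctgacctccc
Egfl7: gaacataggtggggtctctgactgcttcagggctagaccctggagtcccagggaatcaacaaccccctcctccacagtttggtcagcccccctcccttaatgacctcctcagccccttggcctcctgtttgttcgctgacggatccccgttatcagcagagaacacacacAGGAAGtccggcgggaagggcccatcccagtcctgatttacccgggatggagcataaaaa
Erg: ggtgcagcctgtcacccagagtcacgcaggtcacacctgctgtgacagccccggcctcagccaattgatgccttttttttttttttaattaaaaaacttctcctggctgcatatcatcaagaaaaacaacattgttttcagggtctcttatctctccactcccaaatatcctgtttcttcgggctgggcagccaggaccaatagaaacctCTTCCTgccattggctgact

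Of the windows printed, that of *Eng* belongs to a gene that rose with CHIR99021 and the other 3 to genes that fell. *Egfl7* also hosts miR-126a, a microRNA of endothelial cells. Its 3p strand lies at chr2:26591402-26591423 within the gene and is shown because the reads counted for *Egfl7* report the host gene and not this RNA. The capitals mark its seed, bases 2 to 8.
miR-126a-3p: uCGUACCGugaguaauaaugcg

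The total count per sample ranged from 14599082 to 17751992 with DMSO and from 14616300 to 16872129 with CHIR99021. Levels below are CPM (read counts scaled to a common library size) after TMM scaling of the library sizes, and FPKM, the authors' values per kilobase, are used where genes are compared with each other. Fold changes are log2 values of CHIR99021 over DMSO. Adjusted p-values come from edgeR's quasi-likelihood test with Benjamini-Hochberg adjustment over the 16723 genes that passed the filter on low counts, and a gene was called at an adjusted p under 0.05. Liver transcripts stood out in DMSO replicates 2 and 4, where the 10 listed hepatocyte genes summed to 1406 and 1000 CPM. The sums were 59.6 and 8.67 CPM in DMSO replicates 1 and 3 and 1.38 to 8.05 CPM with CHIR99021, and of the 4 hepatocyte genes that passed the filter 3 were called lower (4 by DESeq2 and 1 by limma-voom). The 8 Wnt target genes listed (*Axin2*, *Lef1*, *Nkd1*, *Notum*, *Apcdd1*, *Sp5*, *Rnf43* and *Znrf3*) rose in 8 of 8 cases with a median of 3.69. Of the 10 genes of kidney tissue, 9 fell and 0 rose, with a median of -1.18.

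All 10 endothelial genes were detected in every sample and passed the filter. With CHIR99021, 8 of them fell and 2 rose. Over all tested genes, 48.7% were called in either direction, 25.0% lower and 23.7% higher, so a call by itself was frequent in these data. The genes that fell were *Erg*, *Sox17*, *Sox18*, *Pecam1*, *Emcn*, *Plvap*, *Egfl7* and *Esam*, and those that rose were *Sox7* and *Eng*. The median over the 10 genes was -1.05, while that of all tested genes was -0.0029. A fall past a log2 fold change of -1 was called for 5 members, against 9.16% of all tested genes, and a rise past 1 was called for 1 member, against 4.65%. Each of the 8 lower genes was lower in all 4 pairs of equal replicate number, as were 30.9% of all tested genes, and both higher genes were higher in all 4, as were 30.2%. With DMSO replicates 2 and 4 left out, 7 members were called lower and 2 higher. These are samples of whole kidneys, in which fewer endothelial cells and less RNA of a gene per endothelial cell cannot be told apart.

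**Figure D1:**
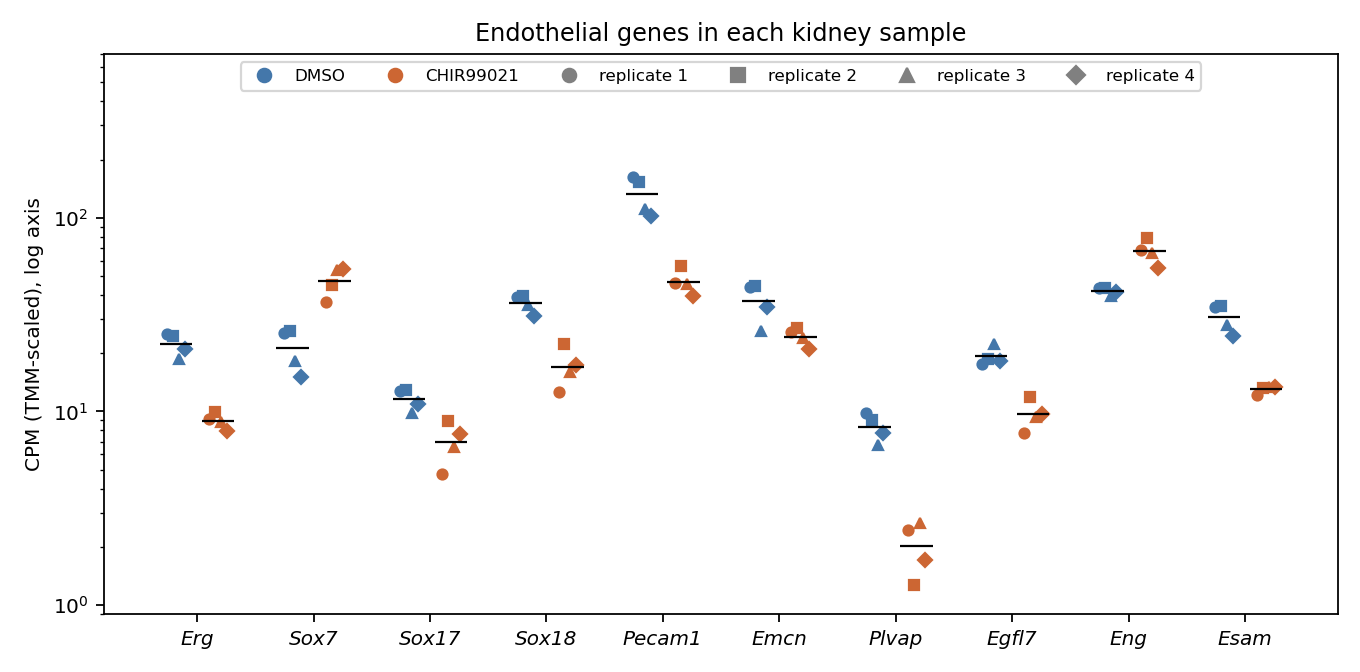
CPM of each of the 10 genes in each sample on a log axis, with DMSO in blue, CHIR99021 in orange, a marker shape for each replicate number and a bar at the group mean. The 2 groups are apart for all genes but *Emcn*, and the CHIR99021 samples lie above the DMSO samples for *Sox7* and *Eng* alone.

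Among the transcription factors, *Erg* (chr16:95359169-95586593, minus strand) encodes the ETS factor that maintains endothelial junctions and identity. It stood at 25.0, 24.6, 18.7 and 21.0 CPM in DMSO replicates 1 to 4. With CHIR99021 it stood at 9.17, 9.91, 8.83 and 7.95 CPM. Every treated sample was thus below every control, and the mean fell from 22.3 ± 3.02 to 8.97 ± 0.811 CPM (SD, n = 4 each). The log2 fold change was -1.32 ± 0.12 (SE), with an adjusted p of 1.3e-06 in edgeR's quasi-likelihood test. Within pairs the log2 difference in CPM ranged from -1.45 to -1.08, a narrow span beside its size.

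*Sox7* (chr14:63943673-63950732, plus strand), the SoxF factor that acts early in the blood and endothelial lineage, moved in the opposite direction. Its levels were 25.3, 26.1, 18.2 and 15.1 CPM with DMSO. They were 36.6, 44.8, 53.8 and 54.2 CPM with CHIR99021, so that every treated sample lay above every control. The mean rose 2.23-fold, from 21.2 ± 5.40 to 47.4 ± 8.36 CPM, with a log2 fold change of 1.15 ± 0.20 and an adjusted p of 0.00155 (edgeR's quasi-likelihood test, n = 4 each). The rise differed in size between pairs. It was 0.53 on the log2 scale in the pair with the smallest rise and 1.84 in the pair with the largest.

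*Sox17* (chr1:4490931-4497354, minus strand), an arterial SoxF factor that is also a factor of endoderm, stood at 12.8, 12.9, 9.84 and 10.9 CPM with DMSO. With CHIR99021 it stood at 4.74, 8.97, 6.53 and 7.69 CPM. The groups did not overlap, but the highest treated sample was close to the lowest control. The log2 fold change was -0.74 ± 0.18, from a mean of 11.6 ± 1.50 to 6.98 ± 1.80 CPM, with an adjusted p of 0.00384 in edgeR's quasi-likelihood test (n = 4 each). Of its exon bases, 16.8% are shared with a transcript on the opposite strand (*Gm37587*). Strand use in the counting is not given in the sources seen here.

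*Sox18* (chr2:181669836-181671640, minus strand), which also starts the lymphatic program in venous endothelium, had the highest FPKM of the 10 genes with DMSO. Its levels were 39.1, 39.7, 35.6 and 31.3 CPM with DMSO. With CHIR99021 they were 12.6, 22.4, 15.9 and 17.4 CPM. All treated samples lay below all controls, and the mean was 46.9% of the DMSO mean (36.4 ± 3.87 to 17.1 ± 4.05 CPM, n = 4 each). The log2 fold change was -1.10 ± 0.15 with an adjusted p of 0.000188 (edgeR's quasi-likelihood test).

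The 3 SoxF genes therefore moved apart, and their FPKM values show how the make-up of the group changed. Their summed FPKM was 32.8 ± 4.29 with DMSO and 25.1 ± 4.21 with CHIR99021 (n = 4 each). *Sox7* made up 20.3% ± 2.54 of that sum with DMSO (17.5% to 22.6%) and 54.7% ± 5.69 with CHIR99021 (46.4% to 59.3%). *Sox18* went the other way, with 72.0% ± 2.44 of the sum in DMSO samples and 39.8% ± 5.09 in treated samples. *Sox17* stayed the smallest part in both groups, at 7.80% ± 0.728 and 5.50% ± 0.681. The shares were computed after the direction of each gene was known and are given with no test. They are shares in whole-kidney RNA, and which cells gave the transcripts of each SoxF gene was not tested.

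**Figure D2:**
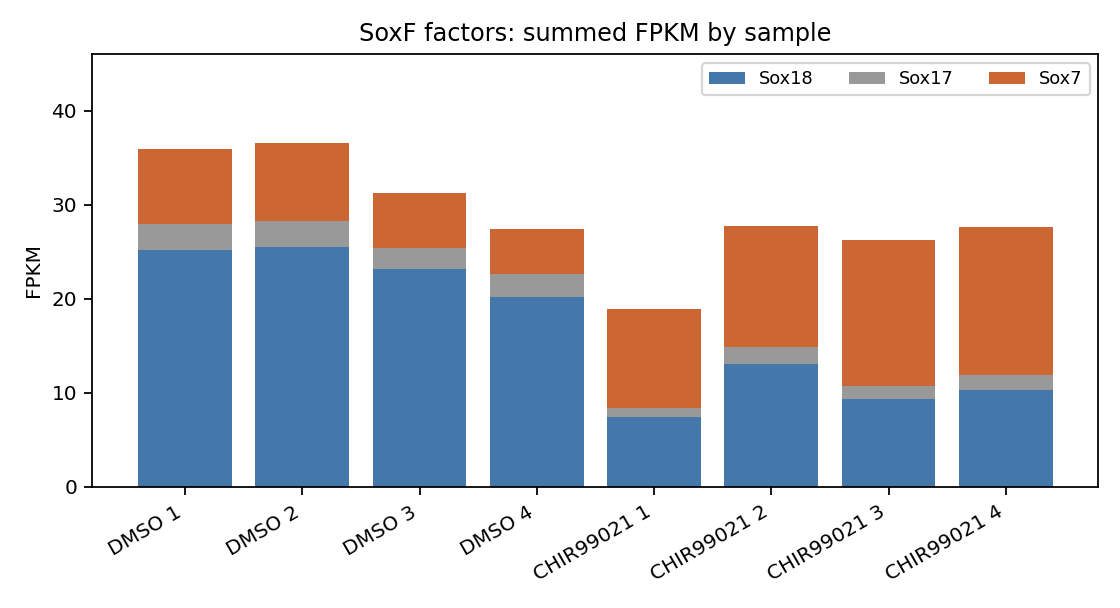
Stacked bars of the authors' FPKM of *Sox18*, *Sox17* and *Sox7* in each of the 8 samples. *Sox18* is the largest part of each DMSO bar, and *Sox7* is the largest part of 3 of the 4 treated bars, with a mean share of 54.7% against 20.3% with DMSO.

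Among the surface proteins, *Pecam1* (chr11:106654217-106750628, minus strand), which encodes the adhesion molecule CD31 of endothelial junctions, had the highest CPM. It stood at 163, 153, 110 and 102 CPM with DMSO. With CHIR99021 it stood at 46.1, 56.4, 45.4 and 39.4 CPM. Treated samples were far below controls, and within the controls replicates 1 and 2 were above replicates 3 and 4. The mean fell from 132 ± 30.3 to 46.8 ± 7.02 CPM, which gave a log2 fold change of -1.50 ± 0.18 and an adjusted p of 0.000293 (edgeR's quasi-likelihood test, n = 4 each). *Pecam1* is also expressed by macrophages and platelets. All 11 tested of 12 listed macrophage genes fell, with a median of -3.18, and their sum was 155.7 to 614.9 CPM with DMSO and 31.0 to 88.6 CPM with CHIR99021. The lowest of these sums among the controls, 155.7 CPM, was in DMSO replicate 4, which was also the lowest control for *Pecam1*. The highest, 614.9 CPM, was in DMSO replicate 3, where *Pecam1* at 110 CPM was below replicates 1 and 2. Of 4 tested platelet and megakaryocyte genes 0 were called by edgeR, DESeq2 or limma-voom, 0 had an unadjusted p under 0.05, and their log2 fold changes ran from -0.37 to 0.99. The part of other cell types in the fall of *Pecam1* was not tested.

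*Emcn* (chr3:137341067-137432185, plus strand) encodes endomucin, a sialoglycoprotein of venous and capillary endothelium. Its levels were 44.0, 44.5, 26.1 and 34.8 CPM with DMSO. With CHIR99021 they were 25.7, 27.0, 23.9 and 20.9 CPM. It was the only member whose groups overlapped, since DMSO replicate 3 fell within the range of the treated samples. The mean went from 37.4 ± 8.76 to 24.4 ± 2.64 CPM, with a log2 fold change of -0.62 ± 0.17 and an adjusted p of 0.0132 (edgeR's quasi-likelihood test, n = 4 each). This was the smallest change of the 10 genes and the call that depended most on the samples and the filter. Without DMSO replicates 2 and 4 the log2 fold change was -0.53 with an adjusted p of 0.0693, and without an expression filter it was -0.60 with an adjusted p of 0.0653.

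*Plvap* (chr8:71497765-71511752, minus strand) encodes the protein of the diaphragms that span fenestrae and caveolae, and it showed the largest fall of the 10 genes. It stood at 9.85, 9.02, 6.68 and 7.72 CPM with DMSO. With CHIR99021 it stood at 2.43, 1.27, 2.65 and 1.71 CPM. The groups were well apart, and the treated mean was 24.3% of the DMSO mean (8.32 ± 1.40 to 2.02 ± 0.641 CPM, n = 4 each). Its log2 fold change was -2.04 ± 0.22 with an adjusted p of 8.21e-06 (edgeR's quasi-likelihood test). It was also the member with the fewest reads, with counts from 19 to 182, so its fold change carried the largest SE.

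*Egfl7* (chr2:26580014-26593120, plus strand) encodes a secreted protein that guides the forming vessel lumen. Its levels were 17.7, 18.7, 22.4 and 18.2 CPM with DMSO. With CHIR99021 they were 7.74, 11.8, 9.33 and 9.73 CPM. The groups did not overlap, and the mean was 50.2% of the DMSO mean (19.3 ± 2.16 to 9.66 ± 1.69 CPM, n = 4 each). The log2 fold change was -1.0 ± 0.13 with an adjusted p of 3.89e-05 (edgeR's quasi-likelihood test). *Egfl7* shares 7.37% of its exon bases with *Gm20532* on the same strand and 1.79% with *Agpat2* on the opposite strand.

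*Eng* (chr2:32646595-32682669, plus strand) encodes endoglin, a co-receptor for BMP9 and TGF-β, and it was the surface gene that rose. Its levels with DMSO lay close together, at 43.6, 43.5, 39.5 and 41.5 CPM. With CHIR99021 they were 68.3, 79.0, 65.8 and 54.9 CPM. Every treated sample was above every control, and the mean rose from 42.0 ± 1.94 to 67.0 ± 9.89 CPM. Its log2 fold change was 0.67 ± 0.09 with an adjusted p of 8.87e-05 (edgeR's quasi-likelihood test, n = 4 each). Endoglin is also made by stromal cells and some macrophages, and the source of the transcripts was not tested. Its signaling partner *Acvrl1*, the type I receptor ALK1, fell by 1.18 on the log2 scale in the same test, with an adjusted p of 9.08e-07 and means of 20.5 ± 0.725 CPM with DMSO and 9.06 ± 1.06 CPM with CHIR99021.

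*Esam* (chr9:37528078-37538319, plus strand) encodes a tight junction adhesion molecule of endothelial cells and platelets. It stood at 34.8, 35.1, 28.1 and 24.6 CPM with DMSO. With CHIR99021 it stood at 12.2, 13.2, 13.3 and 13.3 CPM, the group with the smallest SD of any member. The mean fell to 42.5% of the DMSO mean (30.7 ± 5.16 to 13.0 ± 0.536 CPM, n = 4 each). This gave a log2 fold change of -1.24 ± 0.11 with an adjusted p of 2e-06 (edgeR's quasi-likelihood test).

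**Figure D3:**
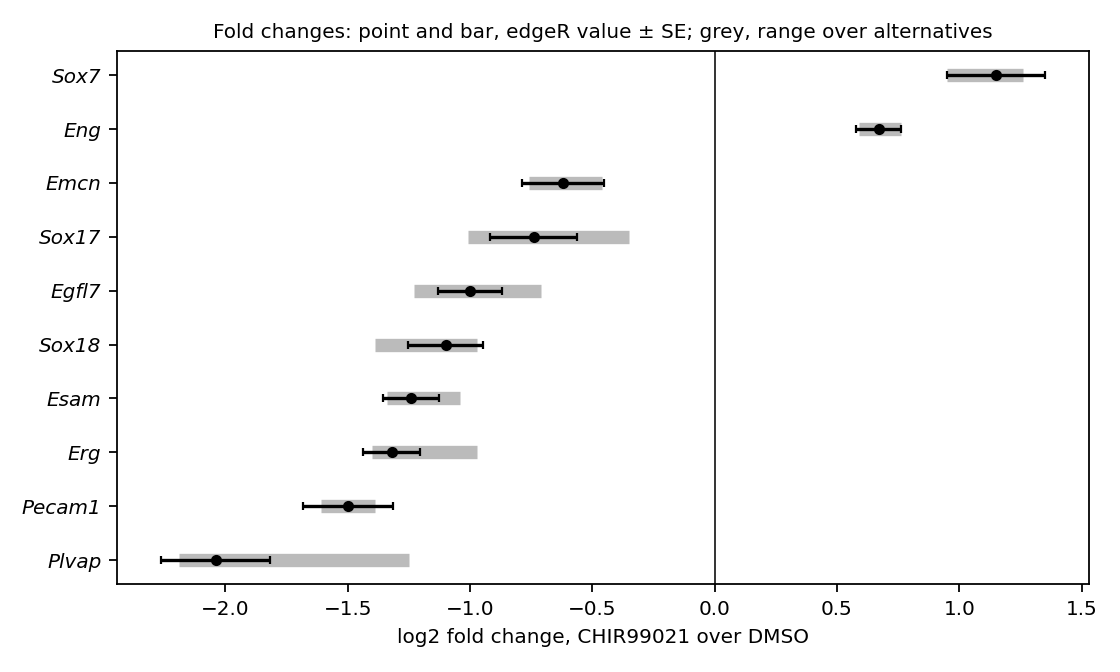
Log2 fold change of CHIR99021 over DMSO for each gene, with the point and bar giving the edgeR value ± SE and the grey band the lowest to highest value over all alternatives and samples left out. The band of every gene stays on its side of 0, and *Plvap*, *Erg*, *Egfl7* and *Sox17* have bands that reach toward 0, which is their value on log2(FPKM + 1).

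In FPKM, which sets genes of different length on a common scale, the order of levels with DMSO was led by *Sox18* at 23.5 ± 2.41 and *Pecam1* at 22.2 ± 4.96, which did not differ beyond their spread. *Esam* at 11.2 ± 1.83 and *Eng* at 10.8 ± 0.429 followed and were likewise not apart. *Emcn* at 7.21 ± 1.65, *Erg* at 6.73 ± 0.868, *Sox7* at 6.71 ± 1.68 and *Egfl7* at 5.63 ± 0.668 formed a middle range in which neighbours overlapped. *Plvap* at 4.37 ± 0.710 and *Sox17* at 2.55 ± 0.312 were lowest. With CHIR99021 the order was headed instead by *Eng* at 15.8 ± 2.23 and *Sox7* at 13.7 ± 2.48. *Sox18* at 10.03 ± 2.35 and *Pecam1* at 7.16 ± 1.03 came next, then *Esam* at 4.33 ± 0.192 and *Emcn* at 4.29 ± 0.436, which were not apart. *Egfl7* at 2.57 ± 0.444 and *Erg* at 2.46 ± 0.207 were not apart either, and *Sox17* at 1.39 ± 0.357 and *Plvap* at 0.967 ± 0.307 were again the lowest.

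The CPM values of the 2 groups did not overlap for 7 of the 8 lower genes and for both higher genes, while 23.4% of all tested genes were lower and 22.7% higher without overlap. The control samples were not alike among themselves. DMSO replicates 1 and 2 were both above replicates 3 and 4 for 9 of the 10 members, *Egfl7* being the exception, and this order held for 21.0% of all tested genes. The same order held for 19 of the 24 genes of a wider endothelial list. It was not the split by liver transcripts, which were high in replicates 2 and 4. Leaving out each sample in turn kept the direction and the call of each of the 10 genes in 8 of 8 fits.

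To see whether the members moved by the same amount as 1 other endothelial gene, each was set against *Cdh5* in the same sample. *Cdh5* is the gene for VE-cadherin. It fell further than the median of the wider endothelial list (-1.30), so it does not stand for the endothelium in general. *Cdh5* itself went from 150.0 ± 27.9 to 49.6 ± 5.03 CPM, a log2 fold change of -1.60 with an adjusted p of 1.67e-05 (edgeR's quasi-likelihood test, n = 4 each). Few genes fell this far, and 86.5% of all tested genes were higher relative to it with no overlap between groups while 2.09% were lower. For the members the count was 6 of 10 higher and 0 lower, a smaller share than over all genes. The 10 ratios were compared by two-sided exact permutation tests over the samples, in which the smallest possible p is 0.0286. These tests shuffled samples across pairs, so they ignore that the study takes both kidneys of an embryo as a pair. No p-value for the ratios takes the pairs into account, and the counts within pairs given below carry no test.

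*Sox7* departed furthest from *Cdh5*. Its log2 ratio was -2.84 ± 0.18 with DMSO and -0.08 ± 0.29 with CHIR99021, a 6.77-fold higher ratio (difference 2.76, exact permutation p = 0.0286). *Eng* went from -1.82 ± 0.21 to 0.43 ± 0.14, a 4.74-fold higher ratio (difference 2.24, exact permutation p = 0.0286). These differences were larger than those of any other member. *Emcn* (0.99) and *Sox17* (0.82), which fell less than *Cdh5*, were also higher relative to it with the same exact permutation p of 0.0286. *Esam* (0.36) and *Erg* (0.27) reached that p with small differences, and with *Tie1* or *Kdr* in place of *Cdh5* neither passed.

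For *Egfl7* (0.58) and *Sox18* (0.47) the exact permutation p was 0.0571, and their groups overlapped. *Pecam1* followed *Cdh5* most closely, with a log2 ratio of -0.19 ± 0.10 in DMSO samples and -0.09 ± 0.11 in treated samples (difference 0.10, exact permutation p = 0.229). *Plvap* was the only member with a lower mean ratio to *Cdh5*. It went from -4.16 ± 0.07 to -4.65 ± 0.58 (difference -0.49, exact permutation p = 0.0857), and the treated samples scattered from -5.44 to -4.21. Taken within pairs, the ratio to *Cdh5* was higher in all 4 pairs for 9 members, *Egfl7*, *Sox18* and *Pecam1* included, and lower in all 4 for *Plvap*. Of all tested genes, 90.1% were higher and 3.15% lower in all 4 pairs. The differences of *Pecam1* within pairs were small, from 0.017 to 0.15.

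**Figure D4:**
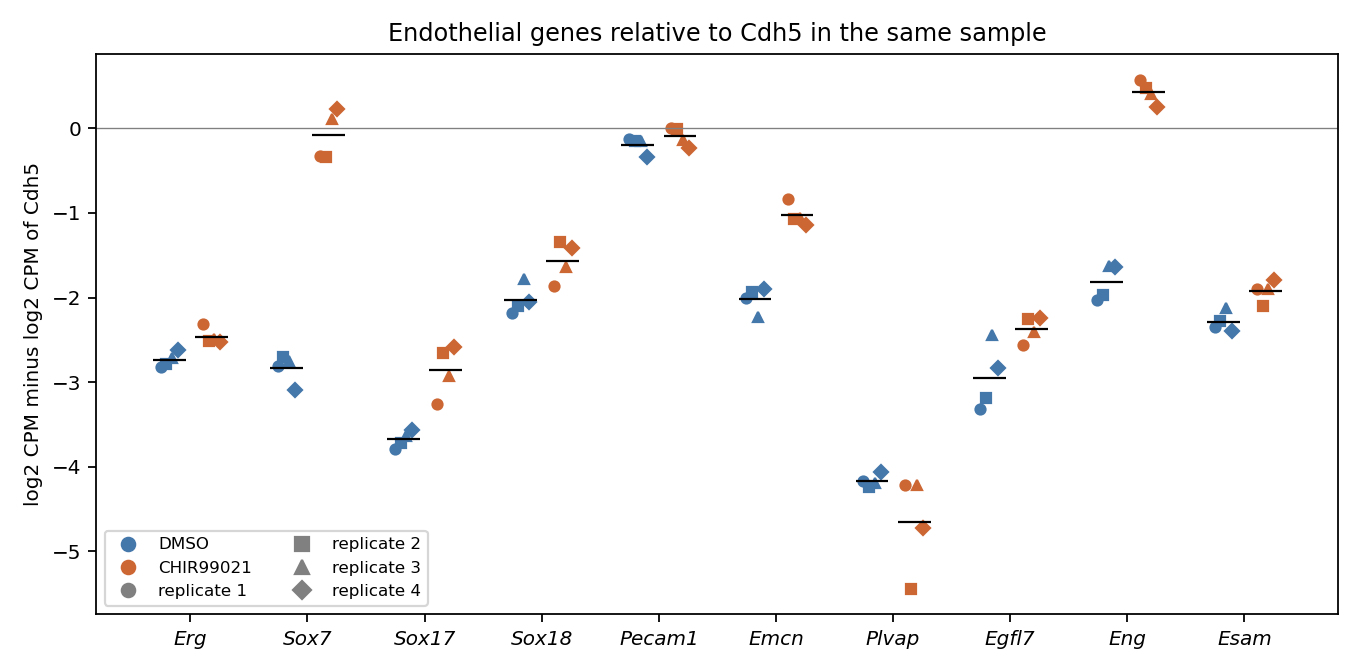
Log2 CPM of each gene minus log2 CPM of *Cdh5* in the same sample, with DMSO in blue, CHIR99021 in orange, a marker shape for each replicate number and a bar at the group mean. *Sox7* and *Eng* rise by 2.76 and 2.24, *Pecam1* moves by 0.10, and *Plvap* is the only gene whose mean goes down.

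The wider endothelial list of 24 genes gives the setting of the members. Of these, 22 fell, 1 rose and 1 was not called, with a median of -1.30. *Robo4*, a receptor that steadies the vessel wall, fell by 1.56 on the log2 scale (adjusted p 1.68e-08, edgeR's quasi-likelihood test). The VEGF receptor gene *Kdr* fell by 1.69 and the orphan receptor gene *Tie1* by 1.52. *Ramp2* (-1.32) and *Calcrl* (-0.80), which together encode the adrenomedullin receptor, and *Ushbp1* (-1.32) fell as well. The exceptions were named after their values were seen. *Ptprb*, the endothelial phosphatase VE-PTP, rose from 17.6 ± 4.75 to 47.7 ± 8.03 CPM (log2 fold change 1.44, adjusted p 0.000558, edgeR's quasi-likelihood test), and *Clec14a* was not called (-0.23, adjusted p 0.504 in the same test). *Ptprb* thus rose along with *Sox7* and *Eng* while most endothelial genes fell.

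Other transcription factors of blood vessels were also mostly lower. Of 15 listed factors 14 were tested, 9 fell and 2 rose, with a median of -1.02. *Klf2*, a factor induced by flow, showed the largest fall at -3.25 (6.72 ± 1.68 to 0.698 ± 0.199 CPM, n = 4 each). *Mef2c* (-1.33) and the ETS factor *Ets1* (-0.71) fell too. The factors that rose were *Elk3* (0.78), also of the ETS family, and, named after its value was seen, *Gata2* (0.88). *Fli1*, the ETS factor most like *Erg*, was not called, with a log2 fold change of -0.40 ± 0.17 and an adjusted p of 0.0786 in edgeR's quasi-likelihood test. With the replicate number as a block *Fli1* was called lower, at -0.41 ± 0.09 with an adjusted p of 0.00332 in the same test. *Klf4* (-0.13) and *Epas1* (0.22), named after their values were seen, were not called with or without the block. The 4 ETS genes *Erg*, *Ets1*, *Fli1* and *Elk3* therefore ranged from -1.32 to 0.78.

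**Figure D5:**
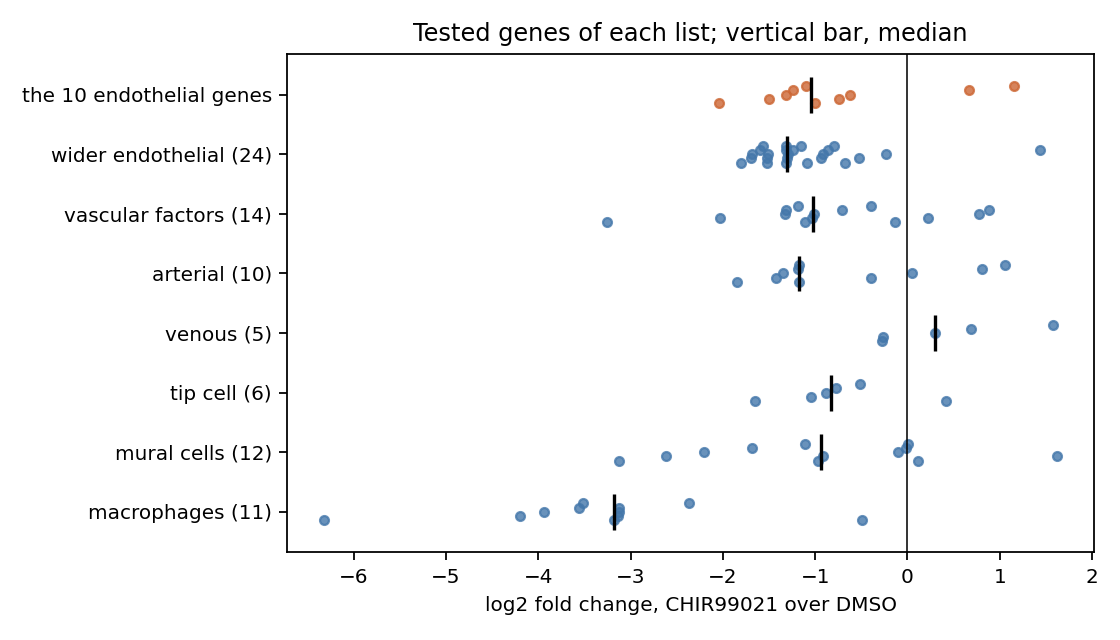
Log2 fold change of each tested gene in the 10 endothelial genes (orange) and in 7 lists of related or neighbouring cell types (blue), with the number of tested genes in brackets and a vertical bar at the median. The medians of the endothelial genes (-1.05) and of the wider endothelial list (-1.30) lie below 0, that of the venous list (0.30) above it, and the macrophage genes lie lowest (-3.18).

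Lists for the types of vessel differed in how many genes rose and fell, and the difference between lists was not tested. Of 10 tested arterial genes 6 fell and 2 rose, with a median of -1.17. *Hey2* (-1.85) and *Notch4* (-1.35), genes of arterial Notch signaling, fell with *Acvrl1*, while the guidance receptor gene *Unc5b* (0.81) and, named after its value was seen, *Gja5* (1.06) rose. Of 5 venous genes 1 fell and 3 rose, with a median of 0.30. The venous genes that rose were *Vwf* (1.58), *Nrp2* (0.69) and *Ephb4* (0.30). *Nr2f2*, a venous factor that stroma expresses as well, fell by 0.28 on the log2 scale. Levels of *Vwf* were low, at 1.02 ± 0.153 CPM with DMSO and 3.04 ± 0.399 CPM with CHIR99021. Those of *Gja5* were low too, at 0.810 ± 0.251 and 1.72 ± 0.535 CPM. Which cells of the whole kidney gave the arterial and venous transcripts was not tested. *Sox17*, the SoxF gene tied to arteries, stood at -0.74 beside the arterial median of -1.17. Of the 5 tested genes of glomerular endothelium 3 fell and 1 rose, with *Gpihbp1* at -2.11, close to the fall of *Plvap*.

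By the profile over the 8 samples, the genes nearest to the mean of the 10 members were *Arhgef26*, *Prag1*, *Jcad*, *Pgf*, *Rps6ka2*, *Dst*, *Notch2* and *1110034G24Rik*. Nearness was the root mean square difference of the centred log2 CPM, over genes with a mean of at least 1 CPM, and it ran from 0.047 for *Arhgef26* to 0.084 for *1110034G24Rik*. These 8 genes were picked as the nearest of all such genes, so their closeness comes from the choice. The mean profile of the members joins genes that fell and genes that rose. Distances of the members from it ran from 0.18 for *Emcn* and 0.19 for *Sox17* to 0.71 for *Plvap*, 0.72 for *Eng* and 0.99 for *Sox7*. The genes nearest to *Sox7* were *Dpp6*, *Adcy7*, *Dkk2* and *Gja5*, and those nearest to *Eng* were *Fgfr2*, *Clcn5*, *Calhm2* and *Lgr5*. These last neighbours were looked up after the rise of both genes had been seen.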

How the data were processed

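RNA from 8 whole-kidney samples was sequenced, 4 with DMSO and 4 with CHIR99021, and samples were grouped by the agent in their labels. The authors aligned reads to GRCm38 with HISAT2 2.0.5, after bcl2fastq, and made the deposited counts per gene with featureCounts, as unscaled whole numbers. FPKM values were computed by the authors and deposited beside them. The deposited table also holds the authors' own comparison (a mean signal after size factors, a fold ratio, its log2 value and a p-value with its adjusted p-value), which was not used. Strand use in counting was not given in the sources seen.

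Genes were kept by filterByExpr (minimum count 10, minimum total 15), which left 16723 of 30890. Counts were scaled by TMM and tested with edgeR 4.0.16 in R 4.3.3 (glmQLFit with robust = TRUE, glmQLFTest, group as the only term), with Benjamini-Hochberg adjustment over all tested genes at 0.05. Log2 ratios to *Cdh5* used CPM with a prior count of 0.5 and exact permutation tests that ignored the pairs. The edgeR test was also run on counts simulated with known changes. It recovered 71.2% of changes of 0.5 on the log2 scale, 91% of those of 1 and 98.5% of those of 2. Of its calls there, 9.38% were false, more than the set level of 0.05 allows for on average. The simulation changed few of its 16530 genes (66 by 0.5, 67 by 1 and 67 by 2), all of them well counted. In the data 48.7% of tested genes were called, so these rates need not hold there or for genes with few reads. Alternatives were a replicate block, upper-quartile and RLE scaling, other filters, DESeq2 1.42.0, limma 3.58.1 (voom, log2(count + 1), log2(FPKM + 1) and log2(FPKM + 0.1)), *Tie1* or *Kdr* as reference, a prior count of 2, each sample left out, DMSO 2 and 4 left out, pairs 1 and 3 alone, and pair 4 left out, the last added after seeing the data.

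The study takes both kidneys of an embryo as a pair, and deviations from the group means correlated across genes at 0.111 to 0.346 between samples with equal replicate numbers, against -0.180 to 0.0766 for the remaining combinations. Whether the 4 pairs are from separate litters or cultures is not stated, so p-values measure the spread between these samples. No samples of a group agreed within sampling noise (chi-square per degree of freedom 5.13 to 12.6). Named genes are all members, up to 4 genes of each list by smallest p with *Cdh5*, *Tie1*, *Kdr* and *Fli1*, and the 8 genes nearest to the members' mean profile. Genes outside this rule are marked as named after their values were seen. The members and lists were chosen with earlier results of these data known.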

Additional observations from a re-analysis of the deposited data

Results flagged for a closer look

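In 74 groups of 4 samples, 7 had a highest or lowest sample set apart from the other 3 by more than Dixon's 95% critical value allows, and chance alone sets apart about 1 group in 20. Of the members, *Esam* was 12.2 CPM in CHIR99021 replicate 1 and 13.19 to 13.35 CPM in the other treated samples, a small gap in absolute terms. The log2 ratio of *Pecam1* to *Cdh5* was -0.34 in DMSO replicate 4 and between -0.15 and -0.12 in the other controls.

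The other 5 were summed levels of lists. Venous genes summed to 547.5 CPM in CHIR99021 replicate 1 against 606.0 to 608.5 CPM in the other treated samples. Mural cell genes summed to 1062 CPM in CHIR99021 replicate 2 against 953.2 to 964.7 CPM. Macrophage genes summed to 155.7 CPM in DMSO replicate 4 against 539.1 to 614.9 CPM in the other controls. Kidney tissue genes summed to 1167 CPM in DMSO replicate 1 against 999.7 to 1017 CPM, and Wnt target genes to 3079 CPM in CHIR99021 replicate 2 against 2670 to 2733 CPM.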

How the results depend on the processing

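The direction of all 10 members held under all 14 alternatives and in all 8 fits that left out 1 sample, and all calls but that of *Emcn* did. *Emcn* was not called with no expression filter (-0.60, adjusted p 0.0653), without DMSO replicates 2 and 4 (-0.53, 0.0693), with pairs 1 and 3 alone (-0.50, 0.19) and without pair 4 (-0.58, 0.0605), all by edgeR. The cause was not tested. *Sox17* stayed called but came close to the limit, at -0.58 with an adjusted p of 0.0499 by limma on log2(count + 1) with the replicate block. With the replicate number as a block, edgeR called 8 members lower and 2 higher, and the adjusted p of *Sox7* was 0.0213. The block changed no call of a member in either tool, and of the other named genes it changed those of *Fli1* (adjusted p 0.00332) and *Ccl21a* (0.043) in edgeR. On log2(FPKM + 1), which shrinks low genes, *Sox17* was at -0.35 and *Plvap* at -1.25. With pairs 1 and 3 alone, 0 wider endothelial genes and 2404 of all genes were called higher. Relative to *Cdh5*, 1 member (*Plvap*) was lower without overlap, in place of 0, when DMSO replicate 2 or DMSO replicates 2 and 4 were left out, and under the replicate block 9 members were higher and 1 lower in all 4 pairs, in place of 6 and 0 without overlap. Over the 8 fits that each left out 1 sample this count ranged from 0 to 1. With *Kdr* as reference the groups of *Sox18* (0.60) and *Egfl7* (0.71) no longer overlapped. No result changed direction. A sign-flip test over 4 pairs cannot pass 0.05, so the ratios to *Cdh5* have no paired test beside the exact permutation tests. The reads behind *Plvap*, 19 to 39 per treated sample, limit its precision most.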

Other observations

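Genes of cells that accompany or extend vessels moved unevenly. Of 6 tip cell genes 5 fell and 1 rose, with a median of -0.82, and *Apln* (-1.65), *Pdgfb* (-1.04), *Angpt2* (-0.88) and *Pgf* (-0.77) fell. Of 12 tested genes of mural cells, the pericytes and smooth muscle cells around vessels, 7 fell and 1 rose, with a median of -0.94. *Foxs1* (-3.13), *Kcnj8* (-2.20), *Cspg4* (-0.97) and *Mcam* (-0.91) fell, and *Acta2* rose by 1.62. The pericyte receptor gene *Pdgfrb*, like *Acta2* named after its value was seen, was at -0.10 with an adjusted p of 0.654 by edgeR's quasi-likelihood test.

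Of 6 lymphatic genes, 1 fell (*Reln*, -2.60) and 1 rose (*Pdpn*, 0.69), both also expressed outside lymphatic vessels, and *Prox1*, *Lyve1*, *Flt4* and *Ccl21a* were not called by edgeR or DESeq2, the first and last of these named after their values were seen. Limma-voom called *Flt4* lower (adjusted p 0.00755), and edgeR with the replicate block called *Ccl21a* lower (-1.58, adjusted p 0.043). Of 9 tested genes linked to the brain endothelial barrier, a program that Wnt/β-catenin signaling is known to drive in the brain, 5 fell and 2 rose, with a median of -0.25. *Tnfrsf19*, which is also a Wnt-responsive gene in other cells, rose by 2.59, while the glucose transporter gene *Slc2a1* fell by 0.41 on the log2 scale. With DMSO the mean of *Slc2a1* was 684.5 CPM and that of *Cdh5* was 150.0 CPM. Which cells of the whole kidney gave the transcripts of this list was not tested. *Plvap*, which is low in vessels with a barrier, had a log2 fold change of -2.04. Relative to *Cdh5* its groups overlapped (difference -0.49, exact permutation p = 0.0857). Any link of its fall to a barrier program was not tested. Of 4 tested erythroid genes 0 were called by edgeR (-1.79 to -0.23) and 0 had an unadjusted p under 0.05, while DESeq2 called 1 and edgeR with the replicate block called 2, both lower. Of 6 tested adrenal genes 2 fell (*Nr5a1* and *Pnmt*) and 0 rose.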
